A study of Mus musculus with 4 samples.

Results

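TRAJ26 to TRAJ35 are the central joining segments of the mouse T cell receptor alpha (*Tcra*) locus. The clones that carry them were taken from the TCR alpha clone tables of 4 spleen CD4 T cell libraries, as every clone whose first listed J hit, with the allele removed, has a number from 26 to 35. This gave 53075 of 189388 clones (28.0%) and 247027 of 871808 reads (28.3%). The range covers 10 segment numbers, and 9 of them were found among the 44 TRAJ segments in the tables, since TRAJ29 was the first hit of no clone. No clone of these segments listed more than 1 J hit.

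The libraries came from 2 wild type (WT) and 2 *Tet2/3* DKO samples. WT mice were C57BL/6, and *Tet2/3* DKO mice carried Tet2-/- in the germline together with Tet3 flx/flx and CD4Cre, a Cre driven by the Cd4 regulatory elements that deletes *Tet3* at the double positive (DP) stage of the thymus. The spleen samples came from mice 25 days old on average, and the methods give 22 to 25 days for *Tet2/3* DKO mice. Live CD4+ CD25- TCRb+ cells that did not bind the aGalCer-loaded CD1d tetramer were sorted, which leaves out invariant NKT cells and CD25+ cells in both genotypes, and the alpha chains were amplified by 5' RACE. The tables list no transcripts other than receptor chains, so the sorted cell type was not checked against marker genes. TCR alpha reads numbered 172506 and 216457 for WT replicates 1 and 2 versus 195046 and 287799 for the *Tet2/3* DKO libraries, in 39463 to 53844 clones per library. Each library is one labelled biological replicate, and the genotype tests below measure only the spread between 2 libraries per genotype. The test of in-frame against out-of-frame clones compares clones within each of the 4 libraries, over both genotypes.

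The alpha chain is assembled from one V and one J segment with no D segment, at the DP stage. Rearrangement of *Tcra* is known to begin with V segments near the J cluster and J segments far from the constant region, and to go on through successive rounds to more distant V and more downstream J segments, so that the central J segments lie in the middle of this course. The J segment supplies the end of complementarity determining region 3 (CDR3), the part of the chain that contacts peptide, and the whole of framework 4. On GRCm38 (mm10), RefSeq places the segments in descending order on the plus strand, TRAJ35 at chr14:54183774-54183838, TRAJ34 at chr14:54184699-54184756, TRAJ33 at chr14:54185358-54185414, TRAJ32 at chr14:54186101-54186166, TRAJ31 at chr14:54187895-54187951, TRAJ30 at chr14:54189866-54189924, TRAJ29 at chr14:54190946-54191005, TRAJ28 at chr14:54191661-54191725, TRAJ27 at chr14:54192303-54192361 and TRAJ26 at chr14:54194490-54194549. They span 10776 bases, and 25971 bases separate TRAJ26 from the start of the constant region gene *Trac*. All 10 are annotated as J segments.

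The sequence of each segment, read from the deposited clones, is given because the germline CDR3 length and the CDR3 endings below are read from its letters. Each is the commonest sequence among the clones that MiXCR aligned with no J base removed, and its length equalled that of the RefSeq segment for all 9. Capitals mark the bases that belong to CDR3, and lower case the framework 4 bases, 5' to 3'.

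TRAJ26: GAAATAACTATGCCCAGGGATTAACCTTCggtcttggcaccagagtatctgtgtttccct
TRAJ27: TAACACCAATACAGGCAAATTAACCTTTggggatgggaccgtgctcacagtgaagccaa
TRAJ28: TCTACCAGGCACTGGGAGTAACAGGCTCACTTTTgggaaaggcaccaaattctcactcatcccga
TRAJ30: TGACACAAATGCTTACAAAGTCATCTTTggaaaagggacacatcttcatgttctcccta
TRAJ31: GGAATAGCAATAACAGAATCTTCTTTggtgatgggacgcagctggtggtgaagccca
TRAJ32: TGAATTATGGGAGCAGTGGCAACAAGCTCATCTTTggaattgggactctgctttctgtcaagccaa
TRAJ33: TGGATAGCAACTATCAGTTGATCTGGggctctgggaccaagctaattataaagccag
TRAJ34: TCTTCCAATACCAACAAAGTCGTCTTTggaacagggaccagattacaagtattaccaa
TRAJ35: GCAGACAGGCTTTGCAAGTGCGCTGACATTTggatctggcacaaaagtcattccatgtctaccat

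The CDR3 part was shortest in TRAJ31 and TRAJ33 at 26 bases and longest in TRAJ32 at 35 bases and TRAJ28 at 34 bases. In its own reading frame TRAJ31 ends the CDR3 with NSNNRIFF and TRAJ33 with DSNYQLIW, the only one of the 9 whose CDR3 closes with tryptophan in place of phenylalanine. TRAJ32 ends it with NYGSSGNKLIF, TRAJ27 with NTNTGKLTF and TRAJ34 with SSNTNKVVF.

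Together the segments held 29.7% and 27.5% of TCR alpha reads in WT replicates 1 and 2, compared with 27.7% and 28.6% for the *Tet2/3* DKO libraries in the same order. Means were 28.6% ± 1.57 (SD, n = 2) in WT versus 28.1% ± 0.673 (SD, n = 2) in *Tet2/3* DKO, and the groups overlapped (exact two-sided permutation test, p = 1). With 2 libraries against 2 this test cannot give a p below 0.33. Each clone counted once, the combined share was 28.6% and 28.1% in WT versus 27.9% and 27.5% in *Tet2/3* DKO, lower in both *Tet2/3* DKO libraries by 0.649 percentage points on average (exact permutation p = 0.33). Among out-of-frame clones, which carry no functional CDR3 and were not selected for it, the share was 32.6% and 31.5% in WT versus 30.8% and 30.99% in *Tet2/3* DKO, a mean difference of -1.21 percentage points with groups that did not overlap (exact permutation p = 0.33). Both differences reached the smallest p the design allows, and neither passed a threshold of 0.05.

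TRAJ31 was the most used TRAJ segment of all 44 by reads, by clones and among out-of-frame clones. It held 7.84% and 7.47% of reads in WT versus 7.16% and 7.09% in *Tet2/3* DKO. TRAJ27 ranked 3 among all segments, with 4.33% and 4.88% of reads in WT versus 5.02% and 5.37% in *Tet2/3* DKO. TRAJ26, TRAJ34 and TRAJ30 followed with means of 3.68%, 3.64% and 3.34% over the 4 libraries, then TRAJ32 with 2.19% and TRAJ33 with 2.03%. TRAJ28 with 0.635% and TRAJ35 with 0.545% ranked 40 and 41. In this order by reads the ranges of the 4 libraries separated TRAJ31 from TRAJ27, TRAJ30 from TRAJ32 and TRAJ33 from TRAJ28, whereas the other neighbours overlapped. By clones the order was TRAJ31, TRAJ27, TRAJ34, TRAJ26, TRAJ30, TRAJ32, TRAJ33, TRAJ28 and TRAJ35, and only TRAJ26 and TRAJ30 overlapped. The closest pair across the 4 libraries was TRAJ32 and TRAJ33, whose read shares differed by 0.12 on the log2 scale on average, followed by TRAJ30 and TRAJ34 with 0.18.

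**Figure D1:**
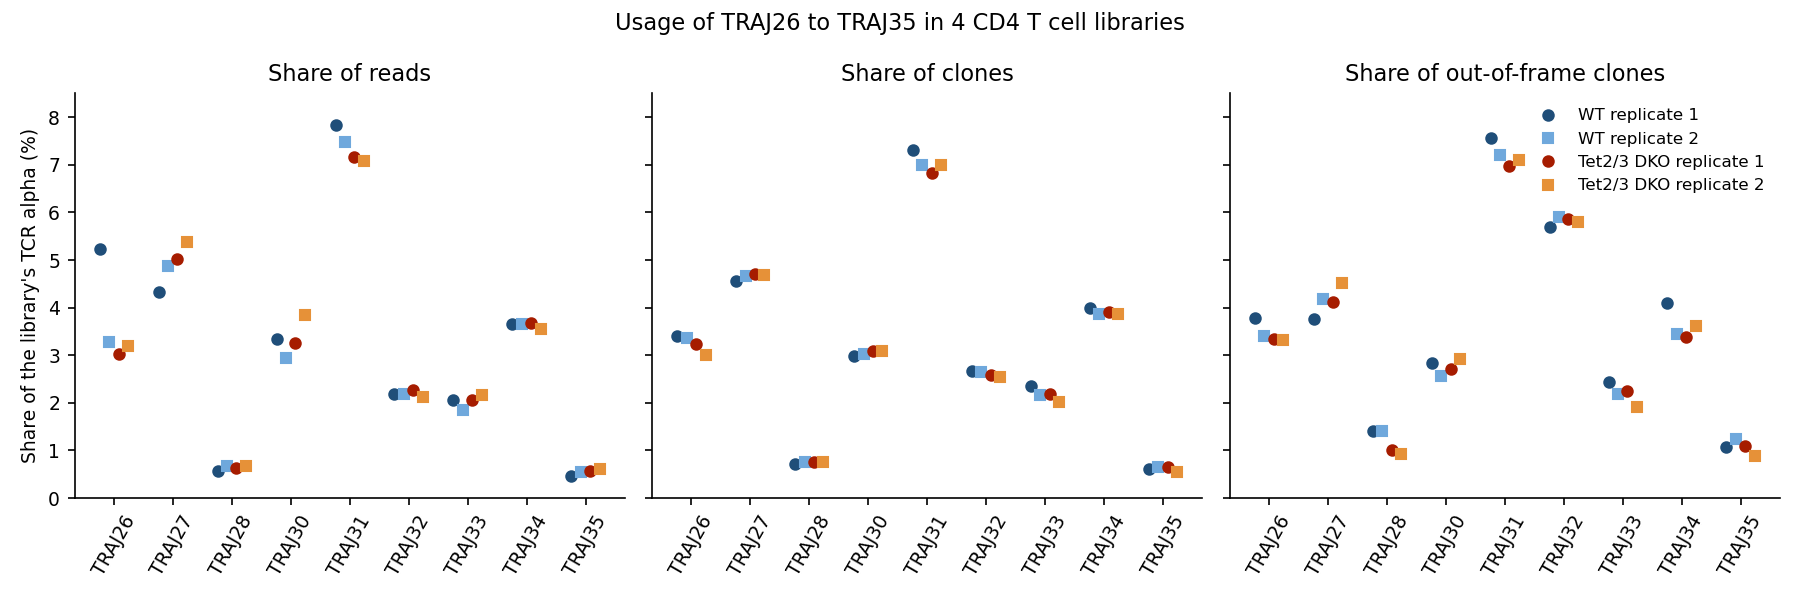
Share of the library's TCR alpha reads (left), clones (middle) and out-of-frame clones (right) held by each segment, in percent, with 1 point per library. WT replicate 1 stands at 5.22% for TRAJ26 by reads, above the 3.04% to 3.27% of the other libraries, while the clone shares of TRAJ26 lie between 3.01% and 3.40%; TRAJ32 rises from 2.61% of all clones to 5.82% of out-of-frame clones.

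Loss of TET2 and TET3 was compared with WT for each segment by reads, by clones and among out-of-frame clones. By reads, 1 of the 9 segments passed the test, TRAJ26, which was lower in *Tet2/3* DKO (of the 43 TRAJ segments tested, 2.33% were called lower, 2.33% higher and 4.65% in either direction). TRAJ26 held 5.22% (95% Wilson interval 5.12 to 5.33) of reads in WT replicate 1 and 3.27% (3.20 to 3.35) in WT replicate 2, against 3.04% (2.96 to 3.11) in *Tet2/3* DKO replicate 1 and 3.19% (3.13 to 3.25) in *Tet2/3* DKO replicate 2. The intervals cover counting error only, since the reads carry no molecular identifiers. WT replicate 1 stood far above the rest, and the other WT library was close to both *Tet2/3* DKO libraries. The log2 difference was -0.45 (SE 0.13, adjusted p = 0.0279, edgeR quasi-likelihood test with Benjamini-Hochberg adjustment over all TRAJ segments). Without WT replicate 1 it was -0.07 and the call was lost. Without the 10 most abundant clones of each library the log2 difference was -0.10 (adjusted p = 0.69). The call was also lost without either *Tet2/3* DKO library. Each such fit leaves 1 library in a group, so a lost call alone cannot tell a smaller difference from lost replication. The remaining *Tet2/3* DKO library stood at 3.04% or 3.19%, against a WT mean of 4.25%. The call was lost in 9 of the 13 alternatives tried, among them DESeq2 (adjusted p = 0.404) and the fit with the replicate number as a block (adjusted p = 0.817).

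A single clone filled much of TRAJ26 in WT replicate 1. It joined TRAV7D-5 to TRAJ26 with the CDR3 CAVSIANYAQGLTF, held 3102 reads and was the most abundant TCR alpha clone of that library, at 1.80% of reads and 34.4% of its TRAJ26 reads. With the most abundant TRAJ26 clone of each library left out, TRAJ26 stood at 3.49% and 3.17% of reads in WT versus 2.97% and 2.88% in *Tet2/3* DKO. Counted by clones, TRAJ26 was 3.40% and 3.36% in WT versus 3.23% and 3.01% in *Tet2/3* DKO, a log2 difference of -0.12 (SE 0.05, adjusted p = 0.348 by edgeR).

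The other 8 segments did not pass the test by reads, with log2 differences from -0.10 in TRAJ31 to 0.20 in TRAJ35. Their median with TRAJ26 included was 0.08, beside 0.01 over all 43 segments. The log2 difference was -0.10 in TRAJ31 (SE 0.08, adjusted p = 0.793 by edgeR). It was 0.17 in TRAJ27 (SE 0.11, adjusted p = 0.793) and 0.20 in TRAJ35 (SE 0.23, adjusted p = 0.867). By clones, none of the 9 segments was called by edgeR or by DESeq2 (0% of 43 segments were called), and 1 of 9 had an unadjusted p under 0.05, TRAJ26, beside 5 of all 43 segments. The log2 differences by clones lay between -0.12 and 0.03, with a median of -0.05 beside 0.01 over all segments.

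Among out-of-frame clones none of the 9 was called by edgeR or DESeq2 (0% of 43 segments), and of the 9 TRAJ28 alone had an unadjusted p under 0.05, beside 5 of all 43 segments. TRAJ28 made up 1.40% and 1.41% of out-of-frame clones in WT versus 1.01% and 0.930% in *Tet2/3* DKO, from 75 and 89 clones against 64 and 67. The *Tet2/3* DKO libraries were both lower, with a log2 difference of -0.54 (SE 0.17, adjusted p = 0.0981 by edgeR). TRAJ32 was 5.70% and 5.90% in WT versus 5.87% and 5.79% in *Tet2/3* DKO (log2 difference 0.01, SE 0.06, adjusted p = 0.994). The remaining 7 log2 differences ranged from -0.24 in TRAJ35 to 0.12 in TRAJ27.

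Each segment's share among in-frame clones was then set against its share among out-of-frame clones in the same library. The segments TRAJ32, TRAJ35 and TRAJ28 held a smaller share in frame (3 of 9, beside 23.3% of all 43 segments called lower in frame). TRAJ32 held 5.70%, 5.90%, 5.87% and 5.79% of out-of-frame clones in the 4 libraries but only 2.004%, 2.002%, 1.93% and 1.94% of in-frame clones. The difference was -1.56 on the log2 scale (SE 0.05, adjusted p = 6.1e-18 by edgeR with the library as a block), and its adjusted p was the smallest of the 43 segments. By out-of-frame clones TRAJ32 ranked 2 among all segments and by in-frame clones 23. TRAJ35 fell by 0.99 on the log2 scale (SE 0.12, adjusted p = 4.3e-07) and TRAJ28 by 0.74 (SE 0.13, adjusted p = 5.92e-05). These 3 calls held in all 10 alternatives.

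The segments called higher in frame were TRAJ27 by 0.19 (SE 0.04, adjusted p = 0.000376), TRAJ30 by 0.17 (SE 0.05, adjusted p = 0.00747) and TRAJ34 by 0.13 (SE 0.04, adjusted p = 0.0207), beside 34.9% of all segments called higher. Scaling by TMM left 1 of these 3 called, with 5 segments lower, and DESeq2 left none of them, with 4 lower. Over the 10 alternatives TRAJ27 was called in 9, TRAJ30 in 6 and TRAJ34 in 5. TRAJ26 (-0.11, adjusted p = 0.0534) did not pass, but was called lower in 5 of the 10 alternatives, with log2 differences from -0.19 to -0.09 over all of them. TRAJ31 (-0.04) did not pass and was called lower in 1 of 10, under TMM, and TRAJ33 (0.02) was called in none.

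The same contrast appeared as the fraction of each segment's clones that were in frame. TRAJ32 was in frame in 68.1% and 68.6% of clones in WT versus 66.9% and 67.5% in *Tet2/3* DKO, the lowest mean of the 43 segments. Frame is that of the CDR3 as deposited, and whether the reference sequence or CDR3 boundary used for TRAJ32 in the alignment bears on its out-of-frame clones was not tested. TRAJ35 followed with 74.5% and 73.6% in WT versus 76.2% and 78.5% in *Tet2/3* DKO. In TRAJ28 the in-frame fraction was 72.6% and 75.9% in WT versus 82.1% and 83.2% in *Tet2/3* DKO, higher in both *Tet2/3* DKO libraries by 8.38 percentage points (exact permutation p = 0.33, adjusted p = 0.717 over all segments). The difference stayed between 6.74 and 10.02 percentage points without each library in turn. The other 6 segments were in frame in 84.2% to 88.4% of clones in every library, near the median of 86.5% of the 34 segments outside the group. Groups that did not overlap were found higher in *Tet2/3* DKO in 3 of the 9 segments (TRAJ28, TRAJ31 and TRAJ35, beside 20.9% of all segments) and lower in 2 (TRAJ27 and TRAJ32, beside 25.6%).

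The out-of-frame clones of TRAJ32 were also uneven between the 2 wrong reading frames, an observation made after the values were seen and given without a test. Among its out-of-frame clones 1014 had a CDR3 whose base count left a remainder of 2 when divided by 3, and 453 a remainder of 1. The share with remainder 2 was 65.9% and 71.0% in WT versus 69.6% and 69.3% in *Tet2/3* DKO. In the other 8 segments it ranged from 36.0% to 55.7% over all libraries, and in the 34 segments outside the group the means ran from 35.6% to 52.1%. With clones of identical V, J and CDR3 bases merged, TRAJ32 stood at 67.6% to 71.1%.

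The V families of these TRAJ32 clones were also set out by frame. TRAV7 made up 25.3% of remainder 2 clones (21.2% to 29.4% over the libraries), 12.4% of remainder 1 clones (7.69% to 14.8%) and 24.6% of in-frame clones (23.2% to 27.1%). In the other 8 segments together TRAV7 made up 25.2% of in-frame clones, 12.5% of remainder 1 clones and 14.0% of remainder 2 clones. The ranges for remainder 2 and in-frame clones thus overlapped in TRAJ32, whereas in the other 8 segments together they ran from 12.8% to 15.7% and from 24.1% to 26.2% and did not overlap. TRAV6 and TRAV13, the other families set out by frame, did not follow TRAV7 in TRAJ32. TRAV6 made up 20.5% of in-frame, 20.5% of remainder 1 and 19.2% of remainder 2 clones. TRAV13 made up 7.52% of in-frame clones (6.25% to 8.44%), 13.6% of remainder 1 clones (10.9% to 17.6%) and 12.2% of remainder 2 clones (8.68% to 14.5%), and it was also lower in frame in the other 8 segments together (8.17% against 11.98% and 14.1%).

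The wrong frames of the 9 J segments differ in whether they meet a stop codon. Read from the CDR3 start in the frame of the V segment, 4.19% of TRAJ32 clones with remainder 1 and 5.42% of those with remainder 2 held a stop codon within the assembled sequence. TRAJ34 was alike, with 3.56% and 1.61%, and 85.6% to 87.8% of its clones were in frame. In TRAJ31 stops were found in 100% and 99.9%. TRAJ28 (97.7% and 2.44%), TRAJ35 (1.41% and 100%) and TRAJ30 (31.3% and 2.05%) each had 1 wrong frame with few stops or none. Both wrong frames held stops in under 10% of clones in 6 of 43 segments. Among these 6 TRAJ32 had the lowest in-frame fraction, and the other 5 stood between 86.0% and 90.4%. Whether stop codons bear on the in-frame fraction was not tested.

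**Figure D2:**
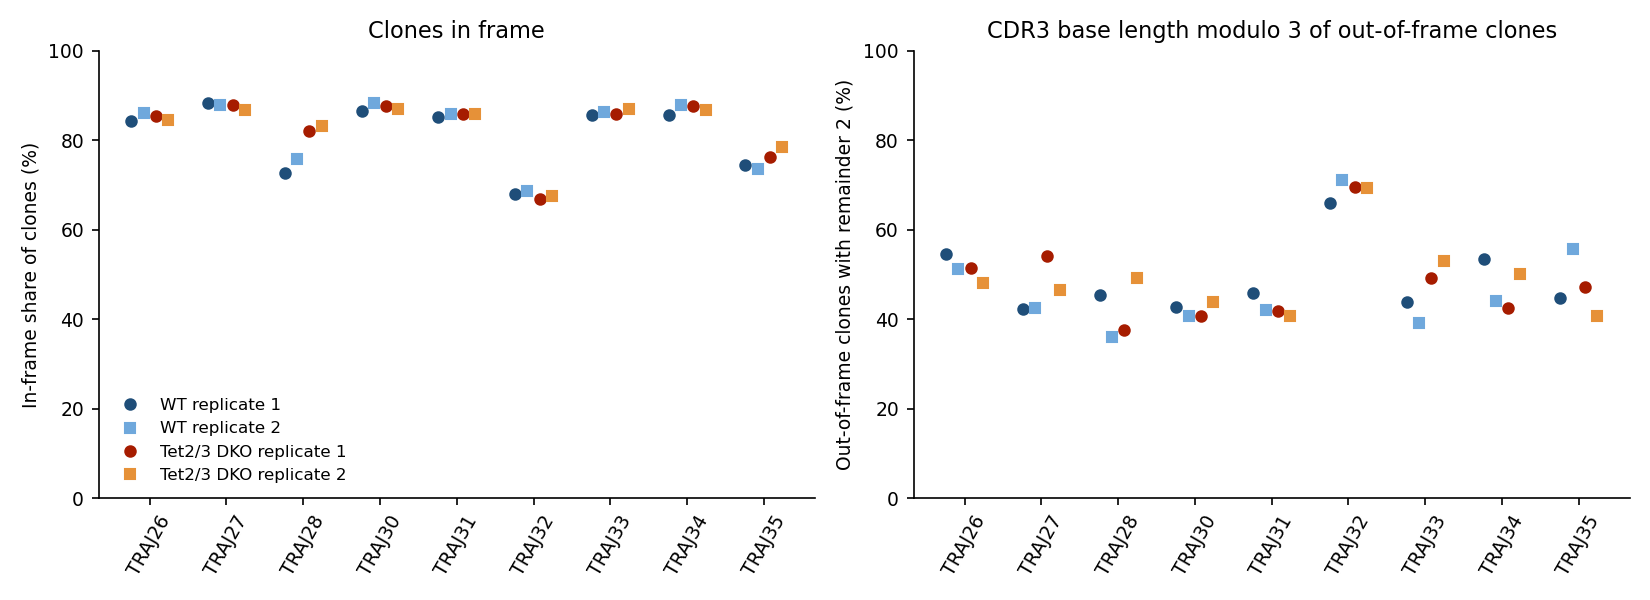
Left, the share of clones in frame, in percent, for each segment with 1 point per library; right, the share of out-of-frame clones whose CDR3 base count leaves a remainder of 2. TRAJ32 lies at 66.9% to 68.6% in frame and 65.9% to 71.0% remainder 2 in all 4 libraries, and the WT and *Tet2/3* DKO points of TRAJ28 are apart on the left.

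In-frame CDR3 length followed the germline length of the J part. Over the 4 libraries TRAJ28 (14.9 amino acids) and TRAJ32 (14.8) had the longest mean CDR3, TRAJ31 (12.4) and TRAJ33 (12.4) the shortest, and TRAJ31 was the shortest of all 43 segments. Across the 9 segments, which share libraries, the germline CDR3 bases and the mean length correlated with Pearson's r = 0.979 and Spearman's rho = 0.924, given as a description. J trimming was unequal, with 3.84 to 4.62 bases removed on average in TRAJ26, TRAJ32 and TRAJ35 and 2.26 to 2.64 in TRAJ27, TRAJ30 and TRAJ34. Inserted bases averaged 1.80 to 2.44 per in-frame clone in every segment and library. TRAJ35, with 31 germline bases, had a mean of 13.6 amino acids, close to the 13.3 of TRAJ27 with 28.

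CDR3 length by genotype differed by a small part of a residue. The mean over the 9 segments was 13.00 and 12.99 amino acids in WT versus 13.04 and 13.09 in *Tet2/3* DKO, longer in both *Tet2/3* DKO libraries by 0.07 amino acids (exact permutation p = 0.33). The same direction without overlap was seen in 5 of the 9 segments (TRAJ26, TRAJ27, TRAJ31, TRAJ32 and TRAJ34), beside 51.2% of all 43 segments, and in the other direction in none (0%). TRAJ segments outside the group were longer by the same 0.07 amino acids. In TRAJ32 the means were 14.83 and 14.73 in WT versus 14.89 and 14.90 in *Tet2/3* DKO, an adjusted p of 0.652 over all segments by the exact permutation test.

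**Figure D3:**
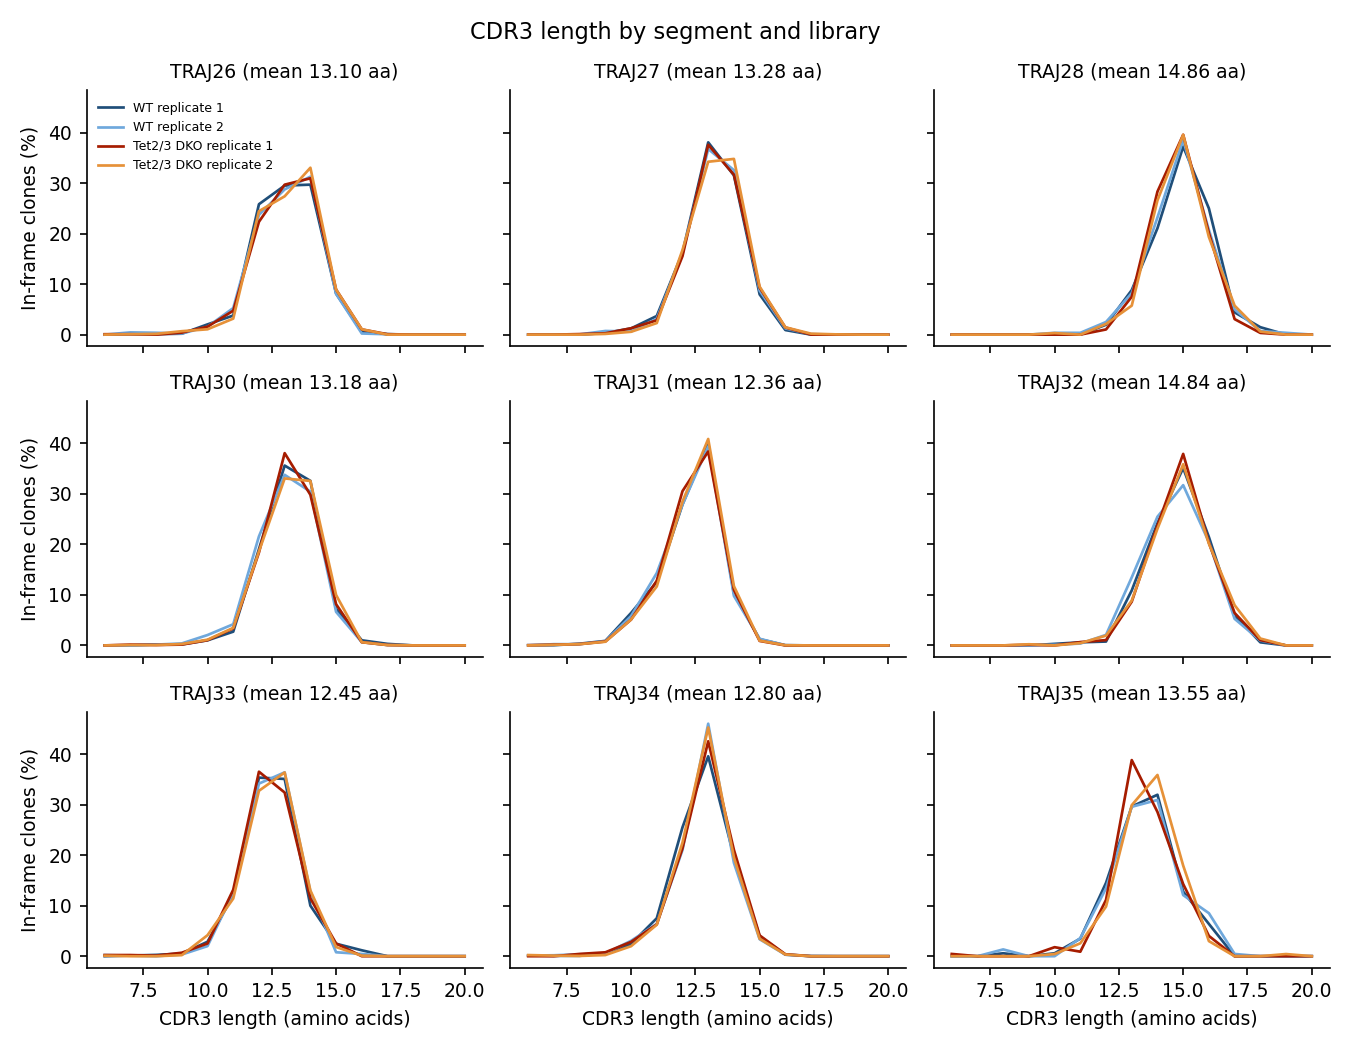
Distribution of CDR3 length in amino acids among in-frame clones, as percent of clones, with 1 panel per segment and 1 line per library. The peak is at 13 in TRAJ31 and TRAJ34 and at 15 in TRAJ28 and TRAJ32 in all 4 libraries, while in TRAJ35 it is at 13 in *Tet2/3* DKO replicate 1 and at 14 in the others.

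The V partners were described by family, counting each clone once and taking the first V hit. Several V hits were listed for 47.9% of these clones, mostly between near-identical copies, so single V genes within a family are uncertain. TRAV7 or TRAV6 led in every segment. TRAV7 ranged from 19.04% of clones in TRAJ34 to 29.3% in TRAJ28, and TRAV6 from 18.7% in TRAJ33 to 25.3% in TRAJ31. TRAV14 came next in every segment except TRAJ35, where it held 7.97% against 11.2% to 16.04% in the others. TRAV8 was most frequent in TRAJ35 at 6.77%, the highest mean of all 43 segments, from 10.2% and 7.62% in WT versus 3.61% and 5.67% in *Tet2/3* DKO. That rank held in neither *Tet2/3* DKO library, since TRAJ28 held 5.80% in replicate 1 and TRAJ2 held 7.28% in replicate 2.

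TRAV11, the family whose rearrangement to TRAJ18 forms the invariant NKT receptor that the sort left out, was the most unevenly spread of the 13 V families above 1% of these clones. It reached 6.26%, 5.28%, 5.65% and 5.24% of TRAJ32 clones in the 4 libraries (275 of 4939 clones), the highest mean of any TRAJ segment. That rank did not hold in WT replicate 1, where TRAJ18 held 6.33%. The mean share of TRAV11 was 3.87% in TRAJ27, 3.83% in TRAJ33, 3.52% in TRAJ35 and 3.31% in TRAJ26. In TRAJ30 none of 5780 clones carried TRAV11, which allows a share of up to 0.0519% for counting error only, and in TRAJ31 43 of 13295 did, or 0.318% on average. Whether alignment or amplification bears on these TRAV11 shares was not tested. TRAJ28 held 1.44% (0.744% to 2.82%), so that all 3 found segments between TRAJ27 and TRAJ32, namely TRAJ28, TRAJ30 and TRAJ31, had lower means than either of those neighbours. Of all 43 segments, 7 had no TRAV11 clone. Among out-of-frame clones TRAV11 was again low in TRAJ31 (1.04%) and 0 in TRAJ30, while TRAJ27 held 11.96% and TRAJ32, at 8.13%, ranked 9 among all segments. No other of the 13 families varied by more than 2.59 times between the highest and the lowest of the 9 segments.

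V segments were also grouped by their position in the locus. TRAV17 to TRAV21, which lie nearest to the J cluster, made up 2.10% of TRAJ35 clones, 1.79% of TRAJ34 and 1.12% of TRAJ33. They made up 1.73% of TRAJ32 and 0.646% of TRAJ31, and 0.238% to 0.572% of TRAJ26 to TRAJ30. Their share rose with the TRAJ number across the 9 segments (Spearman's rho = 0.833, a description over segments that share libraries). It was 9.53% over TRAJ37 and higher numbers and 0.234% over TRAJ24 and lower numbers. The most distant families, TRAV1 and TRAV2, made up 1.18% of TRAJ34 clones to 2.77% of TRAJ28 clones. They were more frequent among out-of-frame clones, at 4.39% over the 9 segments together against 1.60% of all their clones. By genotype, TRAV17 to TRAV21 made up 1.00% and 0.670% of these clones in WT versus 0.885% and 0.917% in *Tet2/3* DKO, and TRAV1 with TRAV2 1.61% and 1.73% against 1.63% and 1.42%, and both pairs of groups overlapped. Among in-frame clones alone TRAV1 with TRAV2 made up 1.17% and 1.25% in WT against 1.10% and 1.03% in *Tet2/3* DKO, which did not overlap. In the same direction, over TRAJ37 and higher numbers they made up 0.309% and 0.211% in WT against 0.180% and 0.135%. Over TRAJ24 and lower numbers the groups overlapped. Among out-of-frame clones of the 9 segments TRAV1 with TRAV2 overlapped, as did TRAV17 to TRAV21 in either frame. These shares were not tested.

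**Figure D4:**
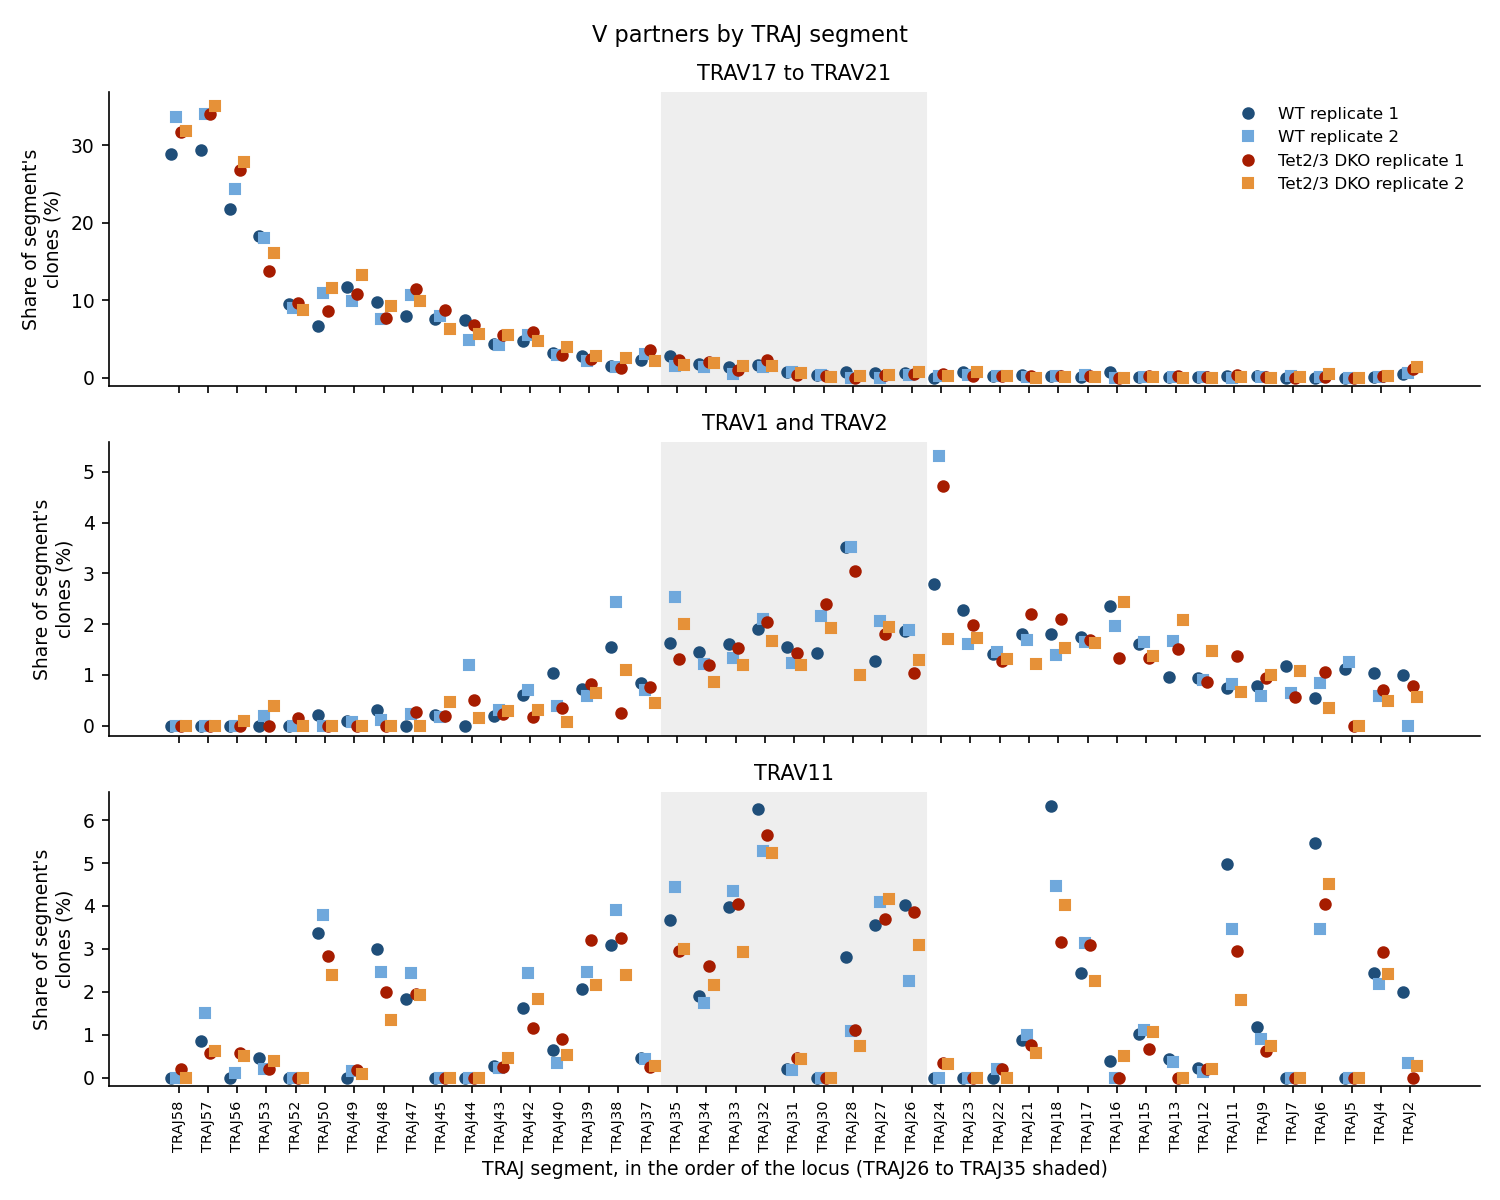
Share of each TRAJ segment's clones that carry TRAV17 to TRAV21 (top), TRAV1 or TRAV2 (middle) and TRAV11 (bottom), in percent, with 1 point per library and the segments in locus order; the shaded segments are TRAJ26 to TRAJ35. Within the shaded segments the means of the 4 libraries for TRAV17 to TRAV21 lie between 0.238% at TRAJ28 and 2.10% at TRAJ35, TRAV1 with TRAV2 between 1.18% at TRAJ34 and 2.77% at TRAJ28, and TRAV11 between 0 at TRAJ30 and 5.61% at TRAJ32.

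No V-J pair passed the test between genotypes. Of 706 pairs of V family and TRAJ segment with at least 10 clones, 157 held one of the 9 segments, and none was called by edgeR or by DESeq2 (0% of all 706 pairs were called), with 8 of the 157 at an unadjusted p under 0.05, beside 33 of all 706. The lowest adjusted p was 0.808, shared by TRAV8 with TRAJ35 (log2 difference -1.01, SE 0.39), TRAV9 with TRAJ35 (-3.07, SE 1.23) and TRAV6 with TRAJ31 (-0.19, SE 0.08). Without *Tet2/3* DKO replicate 1, 1 of the 157 pairs was called. The effective number of V segments per J segment, the exponential of the Shannon index drawn down to equal clones, was 42.6 and 43.0 on average over the 9 segments in WT versus 42.2 and 43.0 in *Tet2/3* DKO (exact permutation p = 1). It was lower in both *Tet2/3* DKO libraries in 4 segments (TRAJ28, TRAJ30, TRAJ33 and TRAJ34, beside 30.2% of all segments) and higher in 2 (TRAJ32 and TRAJ35, beside 9.3%). In TRAJ34 it was 47.4 and 47.5 in WT versus 44.4 and 44.8 in *Tet2/3* DKO (exact permutation p = 0.33). In TRAJ35 it was 35.2 and 38.98 in WT versus 42.3 and 40.04 in *Tet2/3* DKO.

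TRAJ33 joined to TRAV1 forms the alpha chain typical of mucosal associated invariant T (MAIT) cells. In-frame TRAV1-TRAJ33 clones held 27 and 31 reads in WT versus 36 and 13 reads in *Tet2/3* DKO, or 0.0157% and 0.0143% against 0.0185% and 0.00452% of TCR alpha reads. The lowest was *Tet2/3* DKO replicate 2, and the groups overlapped (exact permutation p = 1). The CDR3 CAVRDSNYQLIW was found in all 4 libraries, with 11 and 11 reads in WT versus 22 and 3 reads in *Tet2/3* DKO, and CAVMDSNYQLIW with 3 reads in WT replicate 1.

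The most abundant clone of each segment was listed in each library, and reads of a clone cannot tell more cells from more RNA per cell. In *Tet2/3* DKO replicate 2 the largest clone took 3.94% to 24.95% of its segment's reads, and this library had the highest share of the 4 in 8 of the 9 segments, the exception being TRAJ26. It was the highest in 28 of all 43 segments. In *Tet2/3* DKO replicate 1 the largest clones took 0.480% to 9.72% and were the lowest of the 4 libraries in 6 of the 9 segments. The lowest library was not counted over all 43 segments. The range was 1.23% to 34.4% in WT replicate 1 and 1.16% to 5.12% in WT replicate 2. The *Tet2/3* DKO libraries lay at opposite ends in TRAJ28, TRAJ31, TRAJ32, TRAJ33 and TRAJ34, and the genotypes were not tested on this measure.

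The CDR3 bases of 5 of these clones are given, because each was the most abundant clone of its segment in the library named. Capitals mark the bases between the stretches assigned to the V and to the J segment, and sequences run 5' to 3'. A lower-case base at the edge of a stretch can lie outside the germline segment. In the TRAJ35 clone the c after the capital precedes the 31 germline CDR3 bases of TRAJ35.

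TRAV7D-5-TRAJ26 of WT replicate 1: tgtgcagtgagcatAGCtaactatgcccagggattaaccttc
TRAV7-3-TRAJ33 of *Tet2/3* DKO replicate 2: tgtgcagatagcaactatcagttgatctgg
TRAV16N-TRAJ30 of *Tet2/3* DKO replicate 2: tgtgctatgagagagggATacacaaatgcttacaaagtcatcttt
TRAV7-2-TRAJ31 of *Tet2/3* DKO replicate 2: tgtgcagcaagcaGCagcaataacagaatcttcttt
TRAV7D-5-TRAJ35 of *Tet2/3* DKO replicate 2: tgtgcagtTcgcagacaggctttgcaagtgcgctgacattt

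The TRAJ26 clone carries 3 capital bases. The TRAJ33 clone of *Tet2/3* DKO replicate 2 has none, so that the V and J stretches of its CDR3, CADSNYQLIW, meet directly. That TRAJ33 clone held 1549 reads, 0.538% of the library (95% Wilson interval 0.512 to 0.566) and 24.95% of its TRAJ33 reads, and with it left out TRAJ33 stood at 1.63% of reads. The TRAJ30 clone held 1274 reads and the TRAJ31 clone, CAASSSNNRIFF, 1145 reads. The TRAJ35 clone of *Tet2/3* DKO replicate 2 was out of frame, with 305 reads and 17.6% of the segment's reads. Of the 36 largest clones 31 were in frame and 5 out of frame, of which 2 carried TRAJ32. The CDR3 bases of 22 of the 36 were found in no other library.

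In-frame chains shared by all libraries were counted as identical V, J and CDR3 amino acids. Over the 9 segments 663 of 26529 distinct chains (2.50%) were found in all 4 libraries, beside 2.30% for the other TRAJ segments. The share ran from 4.04% in TRAJ31 (238 chains) and 3.06% in TRAJ27 (139) to 0.473% in TRAJ28 (4) and 0.150% in TRAJ35 (1). Chains found in all 4 carried 1.21 inserted bases on average and those found in 1 library 2.86. The most read shared TRAJ31 chain was TRAV7-2 with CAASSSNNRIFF, at 4 and 21 reads in WT versus 23 and 1216 reads in *Tet2/3* DKO, so that nearly all its reads came from 1 library. For TRAJ34 it was TRAV6-6 with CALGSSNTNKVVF, at 73 and 104 reads in WT versus 87 and 126 in *Tet2/3* DKO. For TRAJ27 it was a chain of TRAV7-2, at 58 and 79 reads in WT versus 76 and 196 in *Tet2/3* DKO.

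**Figure D5:**
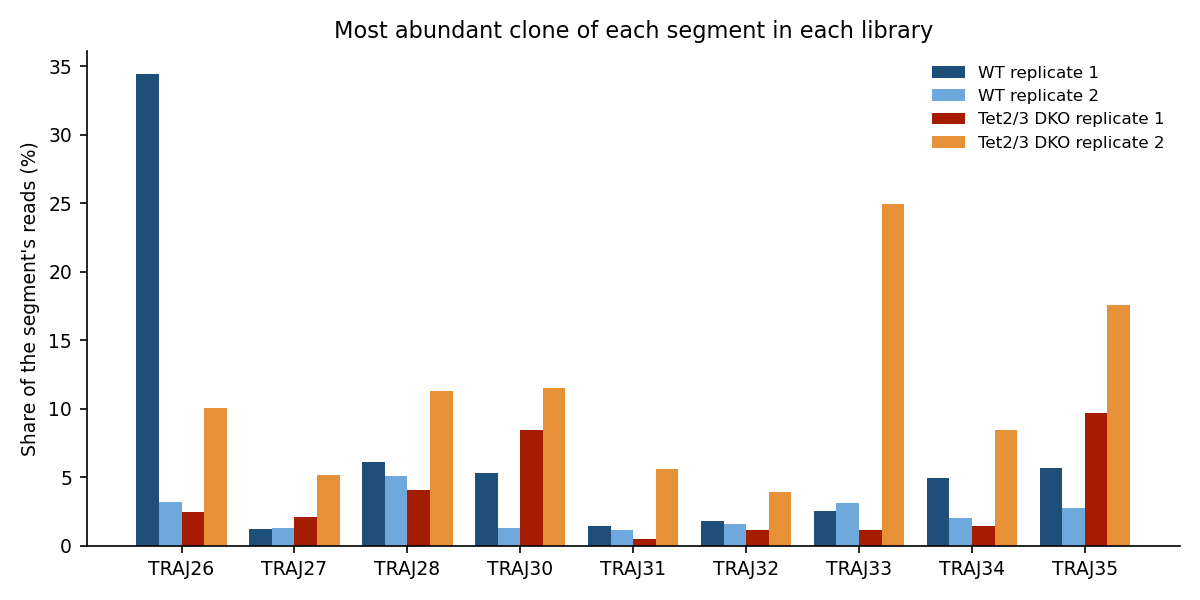
Share of each segment's reads taken by its most abundant clone, in percent, with 1 bar per library. The bar of TRAJ26 in WT replicate 1 reaches 34.4% and that of TRAJ33 in *Tet2/3* DKO replicate 2 reaches 24.95%, while *Tet2/3* DKO replicate 1 is lowest in 6 of the 9 segments.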

How the data were processed

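The TCR alpha clone tables of 4 libraries were analysed. Per the methods and labels, 20 ng of RNA was amplified with the SMARTer mouse TCR a/b kit, reads were trimmed with fastp 0.21.0, and the authors assembled clones with MiXCR 4.7.0; labels name the mm10 build. The authors deposited read counts per clone, with no molecular identifiers, and each clone's fraction of the library, which was checked against the counts and not used further. TCR beta tables were not used here. A clone without a CDR3 (3.34% of these clones) entered usage but not frame or length.

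Counts per TRAJ segment, or per V family and TRAJ pair, were tested with edgeR 4.0.16 (glmQLFit, library totals, at least 10 counts, Benjamini-Hochberg over all features, threshold 0.05) in R 4.3.3, and tested on simulated data. Values per library were compared by the exact permutation test over all 6 assignments of labels, with SD over 2 libraries. Wilson intervals were computed with scipy 1.17.1. Library totals of 172506 to 287799 reads set the precision. Alternatives were TMM, DESeq2 1.42.0, no minimum, a replicate block, a minimum of 2 reads, merged clones, in-frame clones only, equal reads, leaving out the 10 most abundant clones, and leaving out each library. The named segments are all of TRAJ26 to TRAJ35, with the largest clone of each in each library and its leading V families. Members and lists were chosen with earlier results of these data known; the TRAV11 and TRAJ32 frame descriptions were added after seeing the values.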

Additional observations from a re-analysis of the deposited data

How the results depend on the processing

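The count of segments called by reads fell from 1 to 0 with DESeq2, the replicate block, a minimum of 2 reads per clone, in-frame clones only, without the 10 most abundant clones and at equal reads, and was 0 to 1 with each library left out, 1 only without WT replicate 2. The TRAJ26 log2 difference by reads ranged from -0.75 to -0.07 over its alternatives, at an adjusted p of 0.00155 to 0.99. Replicate numbers were checked for pairing by the correlation of deviations from the group means. It was -0.05 by reads, 0.16 by clones and -0.12 among out-of-frame clones. With 2 libraries per genotype these values cannot exclude a batch shared by libraries of the same number. With the replicate block 0 segments were called by reads, by clones and out of frame. With the crossed numbers, chosen after seeing the data, 0 were called out of frame. By clones, leaving out each library gave 0 to 2 called segments (2 without *Tet2/3* DKO replicate 1), among out-of-frame clones 0, and for V-J pairs 0 to 1 (1 without *Tet2/3* DKO replicate 1). In the comparison of in-frame with out-of-frame clones the segments higher in frame numbered 3, then 1 under TMM, 0 under DESeq2 and 1 to 3 with each library left out, 1 without WT replicate 2, and those lower in frame 3, then 5 under TMM and 3 with each library left out. Near 0 the sign changed: TRAJ32 by reads under TMM (-0.0067), DESeq2 (-0.0028), in-frame clones only (-0.011) and equal reads (-0.0040), and from -0.0406 to 0.0509 with each library left out; TRAJ33 by reads without the 10 most abundant clones (-0.0783); TRAJ28 by reads (-0.0510 to 0.225) and TRAJ34 by reads (-0.0405 to 0.00761) with each library left out; and TRAJ33 in frame under TMM (-0.0541), DESeq2 (-0.0421) and a minimum of 2 reads (-0.0096), and from -0.0148 to 0.0357 with each library left out. The genotype difference in the combined share by reads ran from -1.55 to 0.664 percentage points, that by clones from -0.903 to -0.395, that among out-of-frame clones from -1.76 to -0.661, that in the in-frame share from -0.238 to 0.723 and that in CDR3 length from 0.0429 to 0.0947 amino acids with each library left out. The difference in the effective number of V partners was -0.20, then 0.0736 without downsampling, 0.000323 with a minimum of 2 reads and from -0.635 to 0.232 with each library left out. Merging clones of identical V, J and CDR3 bases, added after seeing the data, raised the largest TRAJ26 clone of WT replicate 1 from 1.80% to 1.97% of reads and the largest TRAJ33 clone of *Tet2/3* DKO replicate 2 from 0.538% to 0.592%. Of the other values, 284 kept their direction and call. The cause of these changes was not tested. TRAJ28 and TRAJ35, with 58 to 89 out-of-frame clones per library, are the least precise, and 2 libraries per genotype limit every genotype test.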
